A study of Mus musculus with 46 samples.

Results

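Genes that gained lasting H3.3 from day 9 were protein-coding genes on which no H3.3 peak was centred in the fibroblasts and in the early cells, and 1 or more were centred in each later library of the successful route up to the induced pluripotent stem cells (iPSCs). They were chosen by H3.3 itself. A gene was called bound when the midpoint of an H3.3 peak lay between 1 kb before its start and 1 kb after its end, and the 63 genes selected were bound in D9T-, D12S+, D16S+ and iPSCs and in none of D0, D3 and D6T-. They were 63 of 22238 protein-coding genes, or 0.283%, drawn from 7110 genes not bound in D0, D3 and D6T- (free genes). Bound refers to the midpoint only, and for 18 of the 63 an early peak reached into the window from outside. Their pattern over these 7 libraries is therefore the rule and not a result.

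H3.3 is a variant of histone H3 that is built into chromatin outside DNA replication, in place of the replication-coupled H3, and is known from transcribed genes, enhancers and repeated elements. Trimethylation of lysine 4 of histone H3 (H3K4me3) marks active and poised promoters, while trimethylation of lysine 36 (H3K36me3) lies over the bodies of transcribed genes. During reprogramming, fibroblast genes are shut and a network around Oct4, Sox2 and Nanog is switched on.

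Mouse embryonic fibroblasts (MEFs) from mid-gestation embryos, in which the Oct4 locus carries a GFP tag, were infected with pMXs retroviruses encoding Oct4, Sox2, Klf4 and c-Myc. D0 were the uninfected MEFs and D3 the unsorted cells of day 3. On days 6 and 9 cells were sorted by Thy-1 (T), a marker of fibroblasts, while the sorts of days 12 and 16 used SSEA-1 (S), an antigen of pluripotent cells, so that D6T-, D9T-, D12S+ and D16S+ were taken as the successful route and D6T+, D9T+, D12S- and D16S- as the unsuccessful fractions. The ESD3 line of mouse embryonic stem (ES) cells served as the reference, and 4 further H3.3 libraries followed a conversion of MEFs towards blood cells by Scl, Lmo2, Bmi1 and Runx1 (MEF, D4, cKit+ and cKit-). A sorted fraction is a mixture enriched by 1 surface protein, and not a pure state.

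With 1 library in every group there was no replicate spread to measure a difference by, and nothing was tested. Shares carry 95% Wilson intervals, which cover counting error only. The 12 reprogramming H3.3 libraries held 18.7 to 41.2 M tags and 34062 to 89727 peaks. Of 12 fibroblast markers, 12 were bound in D0 and 5 in iPSCs, and of 12 pluripotency markers 4 were bound in D0 and 12 in iPSCs. Fewer carrying cells and less H3.3 per cell cannot be told apart in these bulk libraries.

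The bases that carried H3.3 from D9T- to iPSCs are shown for 4 of the genes, chosen after their values were seen, as examples of a promoter, an intron of a neuronal gene, and introns of unique and of repeated sequence. Of the 30 genes with such a site, 13 had it in an intron, 9 in an exon, 4 in a flank and 4 at a transcription start. All are given on the forward strand of mm9. In the 2 sequences that follow, capitals mark the bases covered by peaks of all 4 libraries, 170 bases before the start of Atoh1 at chr6:64678598-64678897 and 258 bases in an intron of Kndc1 at chr7:147101097-147101396. The Atoh1 site already lay under an H3.3 peak in D6T-, whose midpoint was outside the window and whose score of 32.5 was above those of Atoh1 in the 4 libraries, 6.40 to 10.4. Atoh1 encodes a neural transcription factor and Kndc1 a guanine nucleotide exchange factor of the brain.
Atoh1: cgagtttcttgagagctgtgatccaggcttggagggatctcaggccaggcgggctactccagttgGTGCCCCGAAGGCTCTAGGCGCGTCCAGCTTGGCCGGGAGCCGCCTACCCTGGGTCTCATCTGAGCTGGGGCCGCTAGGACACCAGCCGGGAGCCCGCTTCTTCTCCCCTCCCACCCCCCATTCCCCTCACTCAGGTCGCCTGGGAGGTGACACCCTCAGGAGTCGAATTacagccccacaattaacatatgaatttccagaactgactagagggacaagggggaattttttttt
Kndc1: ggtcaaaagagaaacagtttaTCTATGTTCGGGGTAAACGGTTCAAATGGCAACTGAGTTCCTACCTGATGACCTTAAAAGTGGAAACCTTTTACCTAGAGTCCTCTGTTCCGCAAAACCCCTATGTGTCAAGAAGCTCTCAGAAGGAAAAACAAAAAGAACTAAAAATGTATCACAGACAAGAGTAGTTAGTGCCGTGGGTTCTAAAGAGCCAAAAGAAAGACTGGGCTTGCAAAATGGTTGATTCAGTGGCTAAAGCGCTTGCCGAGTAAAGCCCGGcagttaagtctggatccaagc

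In the next 2 sequences all 300 bases were covered in all 4 libraries, and capitals mark bases inside a run of 30 that occurs 10 or more times in the genome. Padi4, an enzyme that turns arginine in histones into citrulline, had its site in an intron at chr4:140326399-140326698. Gm14327, a locus of the zinc-finger cluster on chromosome 2, had its site in an intron at chr2:177636779-177637078. None of the bases at Padi4 were in capitals, against 299 at Gm14327.
Padi4: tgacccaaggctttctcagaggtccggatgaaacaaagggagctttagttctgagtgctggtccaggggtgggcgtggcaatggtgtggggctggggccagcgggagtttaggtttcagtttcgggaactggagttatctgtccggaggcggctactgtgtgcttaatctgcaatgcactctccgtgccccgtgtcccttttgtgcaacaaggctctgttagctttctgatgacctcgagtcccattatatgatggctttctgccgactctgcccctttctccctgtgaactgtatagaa
Gm14327: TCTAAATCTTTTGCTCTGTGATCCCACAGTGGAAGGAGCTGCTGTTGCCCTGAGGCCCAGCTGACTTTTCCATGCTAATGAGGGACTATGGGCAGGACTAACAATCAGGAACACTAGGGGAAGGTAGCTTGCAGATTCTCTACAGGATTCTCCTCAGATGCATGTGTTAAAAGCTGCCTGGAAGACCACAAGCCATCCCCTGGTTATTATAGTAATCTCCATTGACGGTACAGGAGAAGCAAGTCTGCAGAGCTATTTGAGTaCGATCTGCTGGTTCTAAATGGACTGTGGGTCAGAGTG

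The 63 genes lay at 58 separate loci, since 10 of them shared a peak with another of the 63. The pairs were Aasdhppt and Kbtbd3, Aim1l and Cd52, Gapdhs and Tmem147, Gbgt1 and Gm10134, and Gm13212 and Gm13242, and the values of a pair are not separate observations. Of 476 gene and peak assignments in the 4 libraries, 32 had their midpoint outside the gene and within another coding gene. RefSeq (GRCm38.p6) paired 61 of the 63 names and listed 53 as protein coding, 3 as long non-coding RNAs (1810032O08Rik as Snhg16, Gm5607 as Sox1ot, and Gm15831) and 5 as pseudogenes. The median length was 15.5 kb, from 0.381 to 190 kb, and equalled the median of all genes, 15.5 kb. Genes bound in D9T- had a median of 25.7 kb and the 7110 H3.3-free genes one of 4.30 kb.

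H3.3 scores of the 63 genes were lowest in D9T- and highest in iPSCs by their median. The score of a peak is its tag count per 10 M tags, summed here over the peaks of a gene. The median summed score of the 63 genes was 10.8 (D9T-), 17.5 (D12S+), 20.0 (D16S+) and 39.8 (iPSCs), beside 44.2, 25.5, 19.5 and 37.0 over all genes bound in the same libraries. In D9T- 51 of the 63 genes rested on a single peak, against 38 (D12S+), 38 (D16S+) and 25 (iPSCs). The median score of single peaks over the whole D9T- list was 10.7, so the call in D9T- often rested on 1 peak of ordinary height. Of the 4 libraries, iPSCs gave the highest score for 42 of the 63 genes and D9T- the lowest for 31. These scores describe the selection and were not tested, and the iPSC library was also the deepest.

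**Figure D1:**
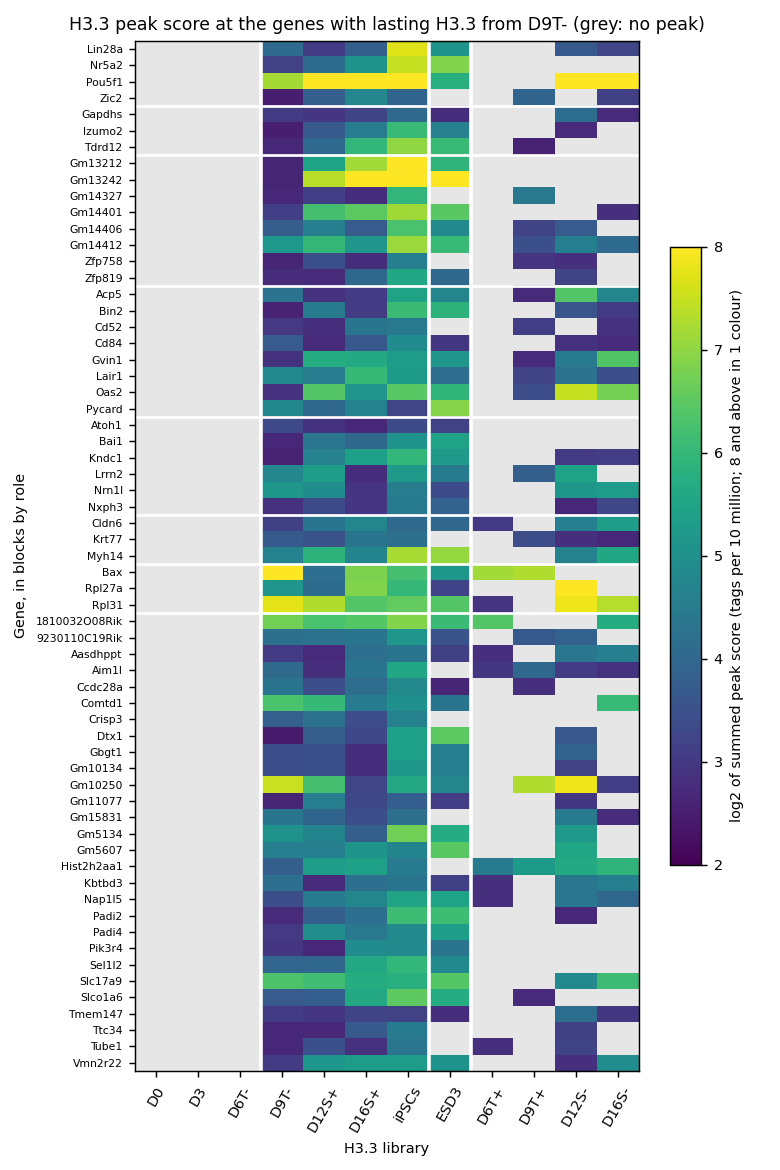
Summed H3.3 peak score (log2 colour scale, tags per 10 M) of each of the 63 genes (rows, in blocks by role) in 12 reprogramming libraries (columns). Grey cells have no peak, the 3 libraries at the left are empty by the rule, and the columns at the right are ESD3 and the 4 unsuccessful fractions, in which between 10 and 52 of the 63 genes were bound.

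Pluripotency genes carried H3.3 at different heights. Pou5f1, which encodes Oct4, had summed scores of 145 (D9T-), 542 (D12S+), 2841 (D16S+) and 5742 (iPSCs), the highest of the 63 genes in the last 3. ESD3 gave 55.3, far below iPSCs, and D12S- and D16S- gave 379 and 353. Pou5f1 had no H3.3 peak in D6T+ or D9T+. Counting peaks that touched the window with their midpoint outside it, D12S+ gave 1995 and ESD3 178.

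Input was high at Pou5f1. The peaks in D9T-, D12S+, D16S+ and iPSCs were 2.04, 2.50, 2.26 and 2.59 times their input, near the lower limit of 2 in the lists, while the ESD3 peak was 4.33 times its input. The input density in those peaks was 21.5, 28.0, 36.1 and 28.2 times the median of the library's peaks, against 1.07 in ESD3. It was 21.2 in D12S- and 22.0 in D16S-. The peak was 0.844 kb long (D9T-), 2.29 kb (D12S+), 10.1 kb (D16S+) and 21.6 kb (iPSCs), where it ran past both ends of the 4.74 kb gene. At the other delivered factors the highest density over the 12 reprogramming libraries was 4.72 times the median, at Sox2 in D3. The cells carried both retroviral Oct4 and a tagged Oct4 locus, and their part in the Pou5f1 score was not tested.

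**Figure D2:**
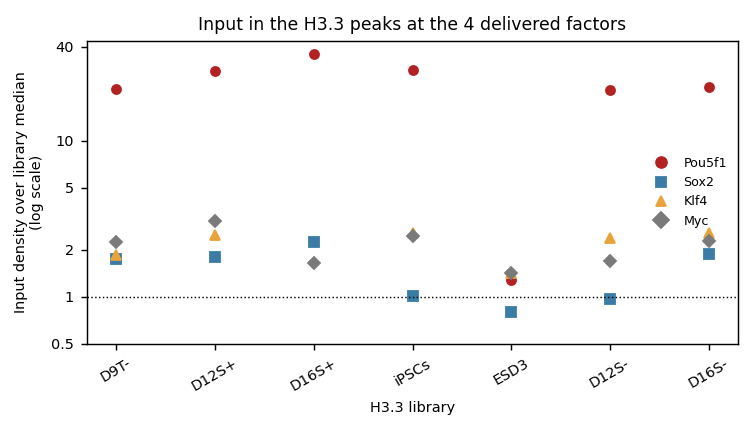
Highest input density in the H3.3 peaks touching Pou5f1, Sox2, Klf4 and Myc, as a multiple of the library's median over all H3.3 peaks (log scale, dotted line at 1), by library. Pou5f1 lies between 21.2 and 36.1 in the 6 reprogramming libraries drawn and at 1.29 in ESD3, and a gene without a peak has no point.

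Nr5a2, a nuclear receptor that binds the Pou5f1 promoter, had scores of 9.11 (D9T-), 17.1 (D12S+), 34.1 (D16S+) and 179 (iPSCs). It had 117 in ESD3 and no peak in any unsuccessful fraction. The D9T- peak lay 6.61 to 7.25 kb from the start of the gene, and 574 bases there were covered in all 4 libraries and in ESD3. In iPSCs peaks spread over the 117 kb gene, to 110 kb from its start.

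Lin28a, an RNA-binding protein that blocks the maturation of the let-7 microRNA, had 17.0 (D9T-), 8.44 (D12S+), 14.1 (D16S+) and 210 (iPSCs), with 34.7 in ESD3. The D9T- and D12S+ peaks lay in an exon 13.7 to 15.0 kb from the start and the D16S+ peaks at the start and in an intron, so no base was shared by all 4 libraries. D12S- and D16S- had scores of 12.8 and 9.51, the one over the same exon and the other at the start. Zic2, a zinc-finger transcription factor of the early embryo and the neural plate, had 5.71, 14.0, 27.4 and 15.4, and no peak in ESD3.

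Of the 9 lists of genes looked up, 5 gave none of the 63. The pluripotency list gave 3 of 65 (Lin28a, Nr5a2 and Pou5f1), the germline list 1 of 57 (Tdrd12), the epithelial list 1 of 56 (Cldn6) and the hematopoietic list 1 of 59 (Cd52). No member came from the lists of fibroblast and mesenchymal genes (61), chromatin (88), cell cycle and DNA repair (96), signalling (104) or neuronal genes (68). In all, 6 of 640 listed genes were among the 63, or 0.938% beside 0.283% of all genes, and the lists were drawn up with results of these data known. The other 57 genes were sorted by role only after they had been found.

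Of 3 genes of germ cells, 3 had H3.3 in ESD3, beside 52 of all 63 and 50.5% of all genes. Tdrd12, a Tudor-domain protein that protects the germ line from transposons, had 6.49 in D9T- and 16.7, 62.9 and 129 in D12S+, D16S+ and iPSCs, with 66.2 in ESD3. Its only unsuccessful fraction was D9T+, with 6.01, from a peak beyond the other end of the gene. Izumo2, a relative of the sperm protein that fuses with the egg, had 5.71, 12.7, 23.2 and 65.7, with 24.5 in ESD3 and 6.59 in D12S-. Its peaks lay at the start of the gene, and 501 bases were shared. Gapdhs, the glycolytic enzyme of sperm, had 8.19, 7.78, 9.34 and 16.6, and its neighbour Tmem147 had the same scores except in iPSCs, where it had 8.87.

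In the translated transcripts, a single C2H2 zinc-finger pattern of set spacing matched 3 or more times in 7 of the 63 genes: Gm13212 (20), Gm14412 (15), Gm13242 (14), Zfp758 (12), Gm14406 (10), Zfp819 (9) and Gm14401 (5). Fingers of other spacing were not counted, and Zic2 had 1 match. Gm14401, Gm14406, Gm14412 and Gm14327 lie in 1 cluster on chromosome 2, and Gm13212 and Gm13242 (Zfp980 in RefSeq) in another on chromosome 4. RefSeq lists the 4 loci on chromosome 2 as pseudogenes. How common such fingers are over all genes was not computed. Some zinc-finger genes encode repressors of transposons, which was not looked at for these loci, and the cluster copies are close relatives.

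Gm13242 had the highest iPSC score after Pou5f1, with 6.18 (D9T-), 165 (D12S+), 359 (D16S+) and 1855 (iPSCs). ESD3 gave 553 and the unsuccessful fractions no peak. Gm13212, which shares peaks with it, had 6.18, 44.4, 143 and 524, with 60.1 in ESD3. The input density in these peaks reached 8.07 times the library median in iPSCs and 6.38 times at Gm13242 in ESD3, and its part in the scores was not tested.

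On chromosome 2, Gm14412 had 37.0, 64.2, 35.2 and 137 from D9T- to iPSCs, and Gm14401 had 8.65, 74.8, 89.1 and 142. Both were bound in ESD3, with 65.9 and 88.0. Of the 8 zinc-finger loci, 6 were bound in ESD3, 8 had H3K4me3 in iPSCs against 5 in D0, and 8 had no earlier overlapping H3.3 peak. Of all 63 genes the same counts were 52, 58, 47 and 45. Over all genes, 50.5% were bound in ESD3, and 68.0% had H3K4me3 in iPSCs and 68.7% in D0. Gm14401, Gm14406 and Gm14412 were the 3 without H3K4me3 in D0, and had H3K4me3 scores of 142, 96.3 and 40.4 in iPSCs.

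Sorted by role after they had been found, 8 genes were of immune cells. Lair1, an inhibitory collagen receptor of leukocytes, had H3.3 scores of 29.2, 22.9, 64.8 and 38.3 from D9T- to iPSCs, and Bin2, a membrane-bending protein of leukocytes, had 6.02, 22.5, 8.27 and 67.7. Oas2, an interferon-induced enzyme that senses viral RNA, had 7.41, 84.4, 35.2 and 88.7, with more in D12S- (178) and D16S- (107) than in any of them. Cd52, a surface glycoprotein of lymphocytes, had 8.03, 7.11, 20.0 and 21.6 and no peak in ESD3. Of the 8 genes, 7 were bound in ESD3, beside 52 of all 63 and 50.5% of all genes. The inflammasome adaptor Pycard was bound in no unsuccessful fraction, although a peak centred outside reached into its window in all 4.

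The 6 genes put under the nervous system in the same way were bound in ESD3 (50.5% of all genes) and had H3K4me3 in D0 (68.7% of all genes). In iPSCs 5 of them had that mark (68.0% of all genes). Bai1, an adhesion receptor of neurons, had 6.33, 20.5, 16.3 and 33.6, with 43.7 in ESD3, and was bound in no unsuccessful fraction. Atoh1 stayed low, at 10.0, 7.33, 6.40 and 10.4. Kndc1 had 6.02, 25.3, 42.1 and 63.0, with 37.5 in ESD3 and only 8.05 and 8.54 in D12S- and D16S-.

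Myh14, a non-muscle myosin heavy chain of epithelia, had 24.8, 59.1, 26.2 and 149, with 133 in ESD3. A site of 588 bases just past its end was covered in each of these 5 libraries. Cldn6, a tight-junction protein of embryonic epithelium, had 8.80, 20.2, 26.9 and 16.6, and more in D16S- (40.5) than on the successful route. Krt77, a keratin of skin, had 13.0, 11.6, 20.3 and 18.5 and no peak in ESD3.

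For 18 of the 63 genes an H3.3 peak already overlapped the gene window in D0, D3 or D6T- while its midpoint lay outside. For 10 of the 18 this held in all 3 early libraries. Rpl27a and Rpl31, proteins of the large ribosomal subunit, had 100% and 53.2% of their window under a D0 peak, and Bax, which drives cell death at the mitochondrion, had 68.6%. For Pycard the D0 peak was 26.3 kb long and covered 100% of the window. At such genes H3.3 already lay over the gene before day 9, and what differed in the call was the position of a peak's midpoint.

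Many of the highest scores belonged to this group. Of the 15 genes with the highest value of their lowest score, 7 had an earlier overlapping peak: Rpl31, 1810032O08Rik, Slc17a9, Comtd1, Bax, Rpl27a and Hist2h2aa1. The other 8 were Pou5f1, Gm14412, Myh14, Gm5607, Lair1, 9230110C19Rik, Sel1l2 and Gm5134. Rpl31 had 217, 156, 84.0 and 94.3 from D9T- to iPSCs, highest in D9T-, where most of the 63 were lower than in iPSCs. Lin28a and Cldn6 also belonged to the 18, but only by 0.702% and 6.04% of their windows in D3. The remaining 45 genes had no base under an early peak and had a median length of 26.6 kb.

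At the 63 genes, lasting H3.3 on a gene was often not lasting H3.3 at 1 place. How often other genes keep a site over these libraries was not computed. Of the 63 genes, 30 (47.6%, 35.8 to 59.7) had at least 1 base covered in all 4 libraries, and 33 had peaks at places that changed. When peaks up to 1 kb apart counted as the same site, the share was 65.1%. Of the 30 sites, 24 were also covered in ESD3 and 24 in D12S-, but 7 in D6T+, 10 in D9T+ and 17 in D16S-. Gbgt1 and Gm10134 have the same site, which is counted for each, and no shares over other peaks stand beside these counts. H3.3 already covered 5 of the 30 in D0, 5 in D3 and 7 in D6T-, by peaks with their midpoint outside the window. Only at Gm14401, Nr5a2 and Padi4 was the site covered in ESD3 and in no unsuccessful fraction.

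The rule holds peaks to the gene and its flanks. Of the 476 assignments, 299 (62.8%) were intronic, 91 lay from 1000 bp before to 100 bp after a transcription start, 53 (11.1%) were exonic and 33 (6.93%) were in the flanks. The intronic share was 48.1% (D9T-), 62.1% (D12S+), 59.6% (D16S+) and 71.1% (iPSCs).

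**Figure D3:**
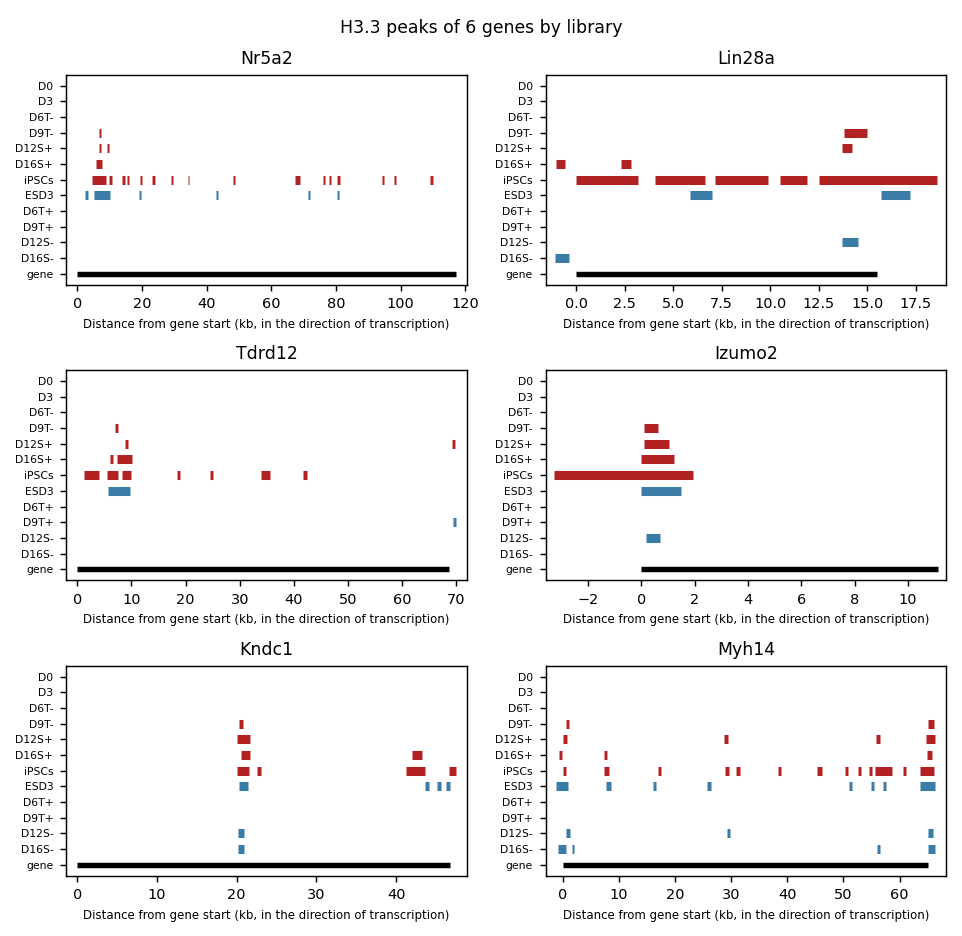
H3.3 peaks (bars, to scale) of 6 genes by distance from the gene's start in kb, with libraries in rows, the 4 libraries of the rule in red, the other libraries in blue and the gene in black. Peaks of Izumo2, Kndc1 and Myh14 return to the same place, those of Lin28a move, and Nr5a2 has 16 peaks in iPSCs where D9T- had 1.

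The sites were compared in sequence. Windows of 300 bases around the 30 shared sites had a median G+C content of 47.5%, and every 100th peak of the iPSC list (816 windows) had 47.3%. Searched on both strands, the octamer ATGCAAAT was in 1 of 30 sites (3.33%; 1.35% of the 816), AACAATG of SOX factors in 2 (6.67%; 4.29%), AAGGTCA of ESRRB and NR5A receptors in 2 (6.67%; 6.86%), CCACACCC of KLF factors in 2 (6.67%; 3.31%) and the E-box CACGTG in 2 (6.67%; 4.17%). The octamer was at Krt77, AAGGTCA at Kndc1 and Gm10250, and AACAATG at Pou5f1 and Nrn1l. The 2 KLF matches were 1 site shared by Gbgt1 and Gm10134.

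Some of the strongest peaks lay in repeated sequence. Around the highest iPSC peak of each gene, 17 of 63 windows (27.0%) had at least 50% of their 30-base runs in 2 or more exact copies in the genome, against 124 of the 816 (15.2%). At 10 copies or more it was 9 of 63 (14.3%) against 9.19%, among them those of Gm14327, Gm5134, Gvin1, Izumo2, Padi2, Sel1l2, Slco1a6 and Vmn2r22. The 816 came from the whole list, whatever their height or place, so the sets are not matched. The part of this in the difference was not tested. The median number of copies was 577 at Slco1a6, an organic anion transporter, 272 at Sel1l2 and 67.0 at Izumo2. The study kept only reads that mapped to a single locus, so peaks in such sequence rest on the reads that could be placed.

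In ES cells, which the rule did not use, most of the genes were bound. ESD3 had H3.3 on 52 of the 63 genes (82.5%, 71.4 to 90.0), against 50.5% of all genes, 11.3% of the genes free in D0, D3 and D6T-, and 47.4% of the other 1025 free genes bound in iPSCs. Those 1025 genes had to be bound in 1 library and the 63 in 4, so they are not matched for how often H3.3 was called. Genes with lasting H3.3 from D6T- (82.1% of 156) or from D12S+ (72.5% of 120) had shares whose intervals overlapped that of the 63. The share was 82.2% in the 45 genes without an early overlapping peak. The 11 genes not bound in ESD3 included Zic2, Cd52, Krt77 and Crisp3.

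Unsuccessful fractions carried H3.3 on many of the genes, with larger shares in the SSEA-1-negative than in the Thy-1-positive ones. D6T+ was bound on 10 of the 63 (15.9%, 8.86 to 26.8), D9T+ on 20 (31.7%, 21.6 to 44.0), D12S- on 43 (68.3%, 56.0 to 78.4) and D16S- on 32 (50.8%, 38.8 to 62.7). Over all genes the shares were 50.7%, 52.3%, 60.3% and 54.2%, and over the genes free in D0, D3 and D6T- they were 1.98%, 2.90%, 7.29% and 4.74%. In the 45 genes without an early overlapping peak they were 8.89%, 33.3%, 66.7% and 42.2%. D12S- had the most peaks of the 4 lists (87536, against 60705 to 65454), and its part in the higher share was not tested.

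Genes with lasting H3.3 from D9T- stood between those of the neighbouring steps. Genes lasting from D6T- were bound in D6T+, D9T+, D12S- and D16S- at 32.7%, 64.1%, 90.4% and 78.2%, and genes lasting from D12S+ at 10.0%, 11.7%, 29.2% and 23.3%. By the rule, genes lasting from D6T- had to be bound in D6T- as well, and those lasting from D12S+ could not be bound in D9T-. The sets are thus not matched for how often H3.3 was called, and their order was not tested.

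**Figure D4:**
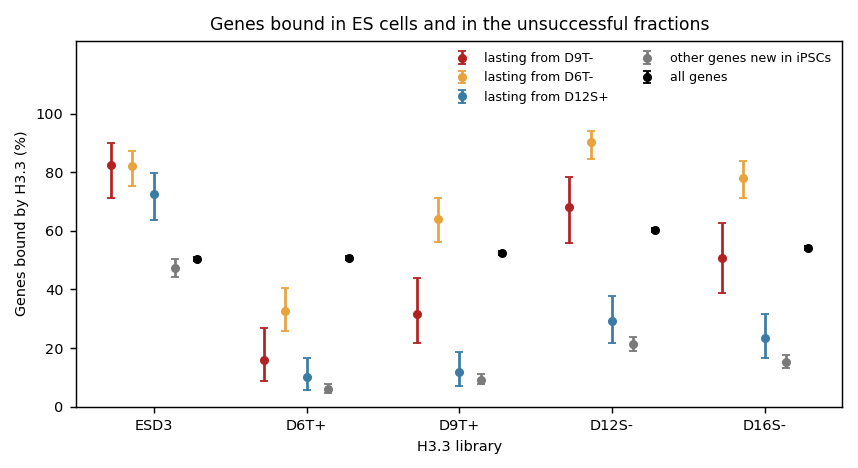
Share of genes bound by H3.3 (percent) in ESD3 and the 4 unsuccessful fractions, for the 63 genes, the genes with lasting H3.3 from D6T- (156) and from D12S+ (120), the other genes newly bound in iPSCs (1025) and all 22238 genes, with 95% Wilson intervals as bars. The 63 genes stand at 15.9% in D6T+, 68.3% in D12S- and 82.5% in ESD3.

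In no unsuccessful fraction were 10 of the 63 genes bound (15.9%, 8.86 to 26.8), against 33.3% of all genes, 88.7% of the free genes and 67.0% of the other free genes bound in iPSCs. Only Aim1l and Hist2h2aa1 were bound in all 4 (3.17%, beside 40.3% of all genes and 0.183% of the free genes). In D6T+ or D9T+ 27 genes (42.9%) were bound, beside 58.5% of all genes. The other 26 (41.3%, beside 8.16% of all genes) were bound in D12S- or D16S- and in neither Thy-1-positive fraction, as Kndc1, Myh14 and Pou5f1 were. For genes lasting from D6T- the share without any unsuccessful fraction was 3.85%, and for those lasting from D12S+ it was 55.0%.

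Of the 10 genes not bound in any unsuccessful fraction, 9 were bound in ESD3. These 9 were 14.3% of the 63, beside 3.59% of all genes and 7.12% of the free genes. The share was 29.6% in the other free genes bound in iPSCs, 3.21% in genes lasting from D6T- and 40.8% in those lasting from D12S+. The call again rests on midpoints: a peak centred outside reached into the window of Pycard in all 4 fractions, of Atoh1 in D12S- and of Bai1 in D16S-, and none did at the other 7. By iPSC score they were Gm13242 (1855), Gm13212 (524), Nr5a2 (179), Sel1l2 (62.6), Bai1 (33.6), Pik3r4 (29.0), Padi4 (28.7), Atoh1 (10.4) and Pycard (9.48). Padi4 had 8.03, 30.9, 21.3 and 28.7 from D9T- to iPSCs, and 41.4 in ESD3. Pik3r4, a subunit of the phosphoinositide kinase of autophagy, had 7.72, 6.44, 29.9 and 29.0. Sel1l2 had 15.6, 16.2, 49.1 and 62.6. Crisp3 was the tenth and had no peak in ESD3. Pycard and Atoh1 were among the 18 genes with an early overlapping peak.

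In the conversion towards blood cells H3.3 was found on 22 of the 63 genes in its MEFs, 35 in D4, 10 in cKit+ and 11 in cKit- cells, which is 34.9%, 55.6%, 15.9% and 17.5% beside 51.5%, 66.8%, 32.1% and 30.5% of all genes and 6.17%, 17.7%, 2.56% and 3.46% of the free genes. In the 45 genes without an early overlapping peak it was 28.9%, 64.4%, 13.3% and 11.1%. Nr5a2, Gm13242 and Pou5f1 were among the 22 bound in those MEFs, with scores of 12.1, 19.5 and 5.03, although D0 of the reprogramming series had no peak on them. The MEF library there had 46.7 M tags and 52862 peaks against 27.0 M and 89727 in D0.

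H3K4me3 was already on most of the genes in D0, as it was on most of all genes. In D0 47 of the 63 genes (74.6%, 62.7 to 83.7) had an H3K4me3 peak, against 68.7% of all genes, 22.9% of the free genes and 56.5% of the other free genes bound in iPSCs. The interval of the 63 holds the share of all genes. Counted only within 1 kb of a transcription start, the share of the 63 was 52.4%, with no share of all genes to set beside it. For the later libraries D3, D6T-, D9T-, D12S+ and D16S+ the number of genes with the mark was 43, 48, 49, 54 and 47, and in iPSCs it was 58 (92.1%, 82.7 to 96.6). Over all genes the corresponding shares were 67.0%, 68.0%, 67.2%, 65.1%, 51.0% and 68.0%, and for the free genes it was 25.0% in iPSCs. H3K4me3 was present in all 7 libraries on 37 of the 63 genes (58.7%, 46.4 to 70.0), an interval that holds the 47.2% of all genes, and on 51.1% of the 45. In none of the 7 was an H3K4me3 peak centred in the windows of Crisp3, Gm10250 and Vmn2r22 (4.76%, beside 25.2% of all genes). At Gm10250 a peak centred outside reached into the window in D0, D3, D6T-, D12S+ and iPSCs.

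Among the 63, 12 genes had H3K4me3 in iPSCs and not in D0 (19.0%, 11.2 to 30.4, beside 3.68% of all genes). That interval holds the shares of genes lasting from D6T- (17.3%) or D12S+ (26.7%) and of the other free genes bound in iPSCs (15.0%). Nrn1l alone had the mark in D0 and not in iPSCs (1.59%, beside 4.42% of all genes). For 9 of the 12 the lasting H3K4me3 call began after D9T-, for Gbgt1 and Gm14401 in D9T-, and for Oas2 in D6T-. Of those 9, 3 had the mark earlier and lost the call again: Gm15831 had it in D3 and D6T-, Pou5f1 in D6T-, and Gm14412 in D9T- and D12S+ but not in D16S+, the shortest H3K4me3 list. Tdrd12 had an H3K4me3 score of 8.85 in D16S+ and 90.4 in iPSCs with none before, and Izumo2 had 11.8 in D12S+ and 15.6 in iPSCs. Pou5f1 had 139 in D6T-, none in D9T- and D12S+, 8.22 in D16S+ and 2969 in iPSCs, and its only H3K36me3 peak of the route was in D9T-, with a score of 155. Input was high at this locus, at 28.2 times the library median in its iPSC H3.3 peak, and its part in these scores was not tested. H3K4me3 peaks had to be 4 times their input and H3.3 peaks 2 times, so the order of the 2 marks rests on unequal limits.

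Of the H3.3 peaks on the 63 genes, 47.9% (D9T-), 48.5% (D12S+), 31.3% (D16S+) and 46.0% (iPSCs) shared a base with an H3K4me3 peak of the same stage. Over all H3.3 peaks it was 29.4%, 25.6%, 16.4% and 28.9%. Those are the whole lists, not limited to genes, whereas the rule holds peaks of the 63 genes to the gene and its flanks. The shares are thus not matched for position, and the part of this in their difference was not tested. Of the 30 shared sites, 12 lay under H3K4me3 in D0 and 14 in iPSCs. Those of Nr5a2, Krt77, Nap1l5 and Ttc34 had it in D0 and in iPSCs, and that of Izumo2 in D12S+ and iPSCs.

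H3K36me3 was found on 16 of the 63 genes in D0 (25.4%), 17 in D9T- (27.0%) and 18 in iPSCs (28.6%, 18.9 to 40.7), beside 47.2%, 47.0% and 34.4% of all genes. The iPSC interval holds the share of all genes. Of the free genes 6.20%, 6.10% and 3.61% had the mark, and of the other free genes bound in iPSCs 15.8%, 16.6% and 14.4%. Keeping the 34062 strongest H3.3 peaks of each list selected 185 genes, of which 25 were among the 63. Of those 185 genes, 48.1% had H3K36me3 in iPSCs. Without the 18 genes with an early overlapping peak the 3 shares of the 63 became 20.0%, 20.0% and 17.8%. Rpl31 had 120 in D0 and 37.4 in iPSCs, and Pik3r4 had 383 and 30.7. Tdrd12 had 30.3 in iPSCs and none in D0, while Nr5a2 and Lin28a had no H3K36me3 peak in any of the 7 libraries. Of the 63 genes, 28 (44.4%) had none in any of them, as had 42.8% of all genes.

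**Figure D5:**
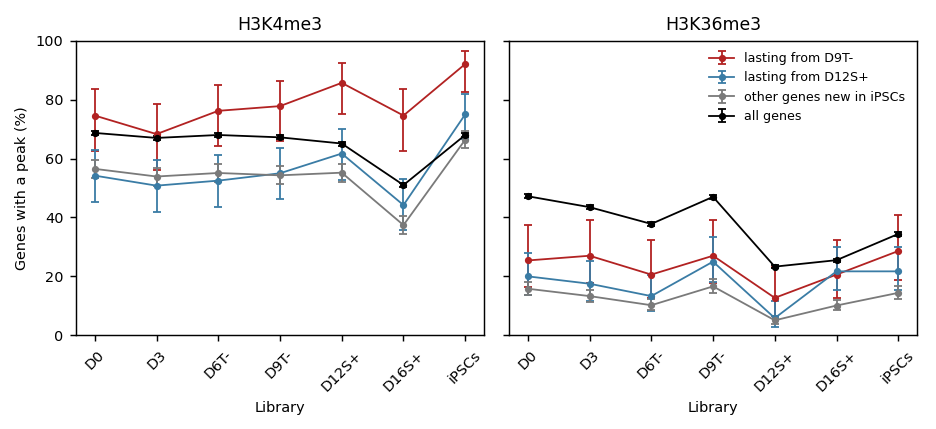
Share of genes (percent) with an H3K4me3 peak (left) or H3K36me3 peak (right) in the gene window in the 7 libraries of the successful route, for the 63 genes, the genes lasting from D12S+ (120), the other genes newly bound by H3.3 in iPSCs (1025) and all genes, with 95% Wilson intervals as bars. H3K4me3 on the 63 genes stands at 74.6% in D0 and 92.1% in iPSCs and H3K36me3 at 25.4% and 28.6%, and D16S+ gave the shortest H3K4me3 list.

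The limits of the selection fell among many similar genes. The genes just inside, with the smallest value of their lowest score, were Dtx1 (5.41 in D9T-), Izumo2 (5.71) and Zic2 (5.71), while the lowest score in the whole D9T- list was 4.63. A further 451 genes missed the rule in 1 library only, 156 of them because D6T- was bound and 120 because D9T- was not. The strongest of these were 2210408I21Rik, with 25.4 in D6T- and 2498 in iPSCs, Sfi1, with none in D9T- and 925 in iPSCs, and Clec2g, with 40.9 in D6T- and 209 in iPSCs.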

How the data were processed

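The files were peak lists of 16 H3.3, 7 H3K4me3 and 7 H3K36me3 libraries. Reads were mapped to mm9 with STAR and those at several loci removed, and HOMER then called peaks library by library, each against an input. Scores and folds were used. The deposited score is a signal, namely tags per 10 M tags. The deposited fold is a ratio to input, at least 2 for H3.3 and 4 for the other marks. The input density of a peak was its score divided by its fold and its length, over the library's median. Genes were the 22238 protein-coding symbols of GENCODE vM1 on the same build, and other marks were assigned like H3.3. Values were computed with Python 3.11.15 and numpy 2.4.6, and the assignment was tested on simulated peaks. Named genes were the 15 with the highest lowest score, those on a list, up to 10 in ESD3 and in no unsuccessful fraction by iPSC score (9 existed), and 3 on either side of the limits; others named were chosen after their values were seen. The members, lists and roles were chosen with earlier results of these data known. The sequence of 1 further site is not reported here. The 16 input libraries were not analysed on their own.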

Additional observations from a re-analysis of the deposited data

Results flagged for a closer look

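An input density of 3 or more times the library median in iPSCs, and above that in ESD3, was found at 3 of the 63 genes. The input density in the iPSC H3.3 peaks was 28.2 times the library median at Pou5f1, where ESD3 gave 1.07. At Gm13242 and at Gm13212, which share that peak, it was 8.07 in iPSCs, where ESD3 gave 6.38 and 3.62. Of the 63 genes, 59 stayed below 3 times the median in all 4 libraries of the rule, and the fourth gene at or above it, Slco1a6, had 1.63 in iPSCs and 2.95 in ESD3. What raised the input at these loci was not tested.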

How the results depend on the processing

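No paired analysis was possible because each group had 1 library, and for the same reason no library of the rule could be left out. The number of genes was the least stable value. Keeping the 34062 strongest H3.3 peaks of each list gave 185, of which 25 were among the 63, and a limit of 4 on the fold gave 15, of which 4 were. The other windows and the overlap rule gave 60 to 64 genes, sharing 35 to 45 with the 63, and the cause was not tested. Only Gm5607 and Myh14 were kept under all 6 alternatives. The shares that follow are over the genes selected under each setting. The share with H3K4me3 in D0 was 84.9% with equal peak numbers, 100% with a fold of 4 and 52.4% within 1 kb of a transcription start; in iPSCs it was 100% with a fold of 4 and 60.3% near a start. H3K36me3 in iPSCs was 48.1% with equal peak numbers, 17.2% with a 5 kb flank and 17.8% without early overlapping peaks, an alternative added after seeing the data, as was leaving out Pou5f1. The share with 1 shared site was 13.3% with a fold of 4 and 65.1% with peaks up to 1 kb apart. The median length was 23.6 kb with a fold of 4 and 26.6 kb without early overlapping peaks. The other 54 of 68 alternative values moved by less than the interval of the main share or 1.5 times the main count, among them every value for ESD3 (73.3% to 86.7%) and for the absence from unsuccessful fractions (11.7% to 21.7%).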

Other observations

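The 63 genes were spread over 14 chromosomes, with 12 on chromosome 7 (19.0%, beside 9.29% of all genes), 8 on chromosome 2 and 8 on chromosome 4. Nap1l5, an imprinted gene of the nucleosome assembly family, had H3.3 scores of 10.8, 21.8, 27.2 and 45.4 from D9T- to iPSCs and 44.6 in ESD3, over an H3K4me3 peak present in all 7 libraries, while its H3K36me3 score was 140 in D0 and none was called in iPSCs. Padi2, another enzyme of the Padi4 family, had H3.3 scores of 6.64, 14.2, 18.4 and 70.7, with 70.8 in ESD3 and 6.40 in D12S-.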
